A study of Mus musculus with 16 samples.

Results

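The comparison of newborn with juvenile hippocampus rests on 8 WT mice, 4 at postnatal day (P) 1 and 4 at P30, with 1 array of whole hippocampal RNA per mouse. These are all the WT arrays among the 16 of the series and were taken by their genotype and age labels alone, so that no measured value chose them. The other 8 arrays hold 4 *Mef2c*-het mice at each age, which carry 1 *Mef2c* allele without exon 2 in every cell of the body and are called KO in the labels. The study used these mice to ask how the loss of 1 copy of *Mef2c*, a transcription factor gene of neurons, changes the hippocampus. The WT mice are littermates from the same C57BL/6J background, received no treatment according to the labels, and have both alleles intact. The labels give neither sex nor litter nor chip.

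In the newborn mouse hippocampus the pyramidal neurons have mostly been born and are extending axons and dendrites, whereas granule neurons of the dentate gyrus are still being produced by dividing progenitors. During the following weeks most synapses form, inhibitory circuits mature, astrocytes take up the tasks of clearing transmitter and buffering ions, and oligodendrocytes wrap axons in myelin. In a homogenate of the whole tissue, fewer cells of a type and less RNA per cell cannot be told apart, and this holds for every fall and, in reverse, for every rise described here.

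The RNA was read on Illumina MouseRef-8 v2 beadchips, where the fluorescence of many beads is averaged for each probe. A level is given here as the log2 of that signal after quantile normalization over the 8 arrays, so that a difference of 1 between arrays of the same probe is a 2-fold difference. Between 12868 and 13881 of 25697 probes were detected above the negative controls on the P1 arrays and between 12638 and 13801 on the P30 arrays. The arrays of an age correlated at 0.986 to 0.995 (P1) and 0.988 to 0.996 (P30) and arrays of different ages at 0.921 to 0.940, and the leading principal component, with 85.1% of the variance, separated the ages. The labels name no batch, but WT P1 replicate 8 and WT P30 replicates 6 and 7 had a higher background (5th percentile of the raw signal 140.0 to 158.4, against 105.8 to 130.8 on the other 5 arrays). The ages also differed in sex as read from the arrays, here by the log2 of the raw signal before normalization. *Xist* read 8.51, 8.71 and 8.69 on WT P1 replicates 1, 4 and 5, against 6.90 to 7.63 on the other 5 arrays. Those 5 arrays had the higher Y-linked signals (8.02 to 8.46 against 7.19 to 7.39). By this reading 3 P1 mice were female and the remaining P1 mouse, replicate 8, and all 4 P30 mice were male. Among the P1 arrays sex and the higher background cannot be told apart, since the same array holds both, and where a named gene lost its call with sex in the fit or with the male arrays alone, the adjusted p of at least one of these fits is given beside it.

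In all, 13770 probes of 10083 genes were detected on at least 4 of the 8 arrays and tested with limma. At an adjusted p under 0.05, termed called from here on, 3916 probes (28.4%) were higher at P30 and 4421 (32.1%) lower. Of these, 976 (7.09%) were at least 2-fold higher and 765 (5.56%) at least 2-fold lower, and 244 rose and 112 fell at least 4-fold. Counted by gene, with the brightest probe standing for each gene, 2964 genes (29.4%) were higher and 3357 (33.3%) lower, with 795 (7.88%) and 626 (6.21%) at least 2-fold so. The median log2 fold change over all genes was -0.038, and the probes ranged from -4.54 to 7.02. On 3643 probes every P30 array lay above every P1 array and on 3984 every P30 array lay below, together 55.4% of those tested. A probe detected on no array of 1 age passed the filter through the other age alone, so its direction was largely set beforehand. Of 286 probes detected on no P1 array 280 were called higher, and of 269 detected on no P30 array 259 were called lower. With the male arrays alone, 1740 of the 1741 called probes of 2-fold or more kept their direction and 1667 were still called.

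**Figure D1:**
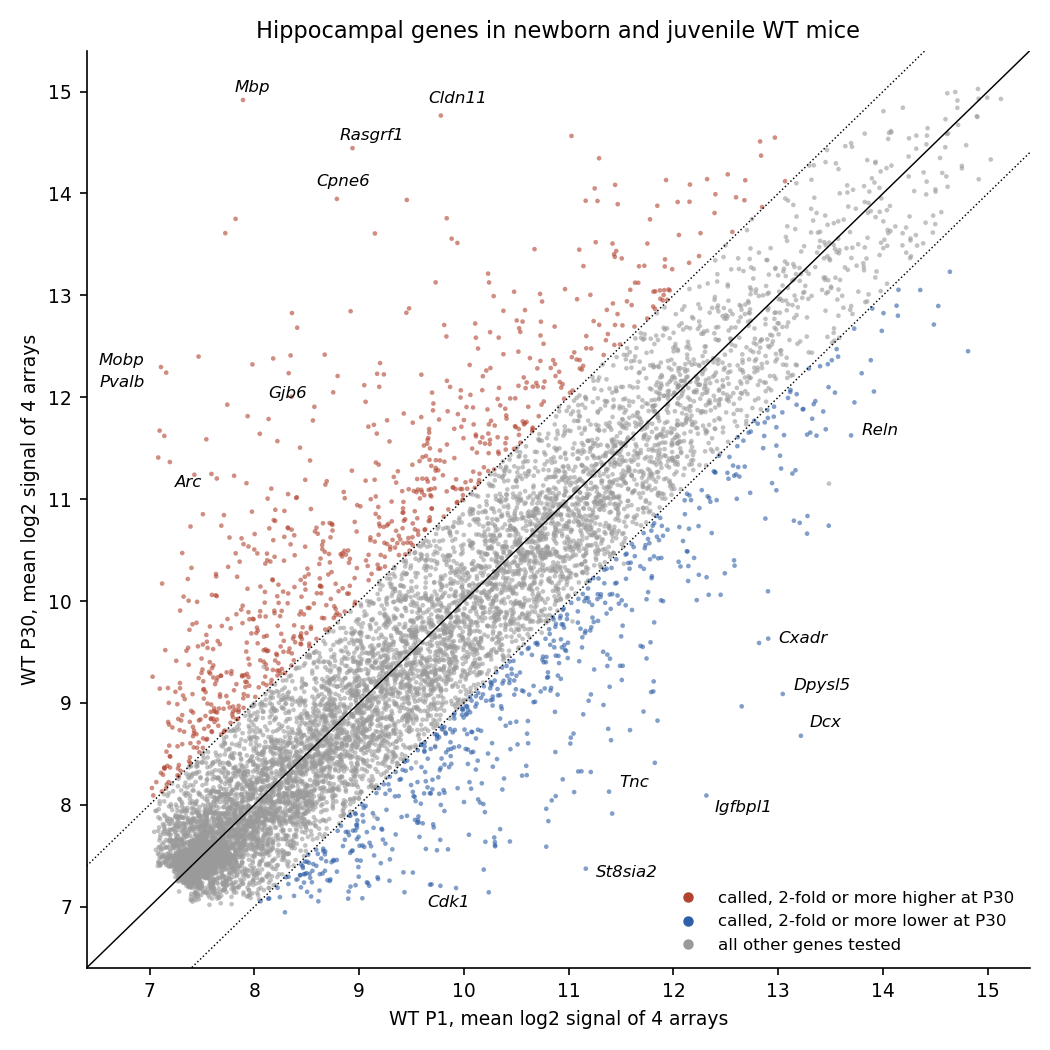
Mean log2 signal of each gene over the 4 WT P1 arrays (horizontal axis) and the 4 WT P30 arrays (vertical axis), 1 point per gene, with called genes of at least 2-fold colored. *Mbp* lies farthest above the diagonal and *Dcx* farthest below it.

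The largest rises included genes of myelin and of excitatory synapses, and the largest falls included genes of dividing cells, new neurons and growing axons. Probes of 1 gene can differ in the size of their change, as from 0.35 to 2.72 on the log2 scale for *Fgf1* and from -0.55 to -3.27 for *Tnc*. The values given are those of the brightest probe. In 36 lists of genes by role or cell type, 884 listed genes were tested. Each list is described by the number of its tested members called in either direction and by its median, to be read against 29.4% higher, 33.3% lower and a median of -0.038 over all genes.

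**Figure D2:**
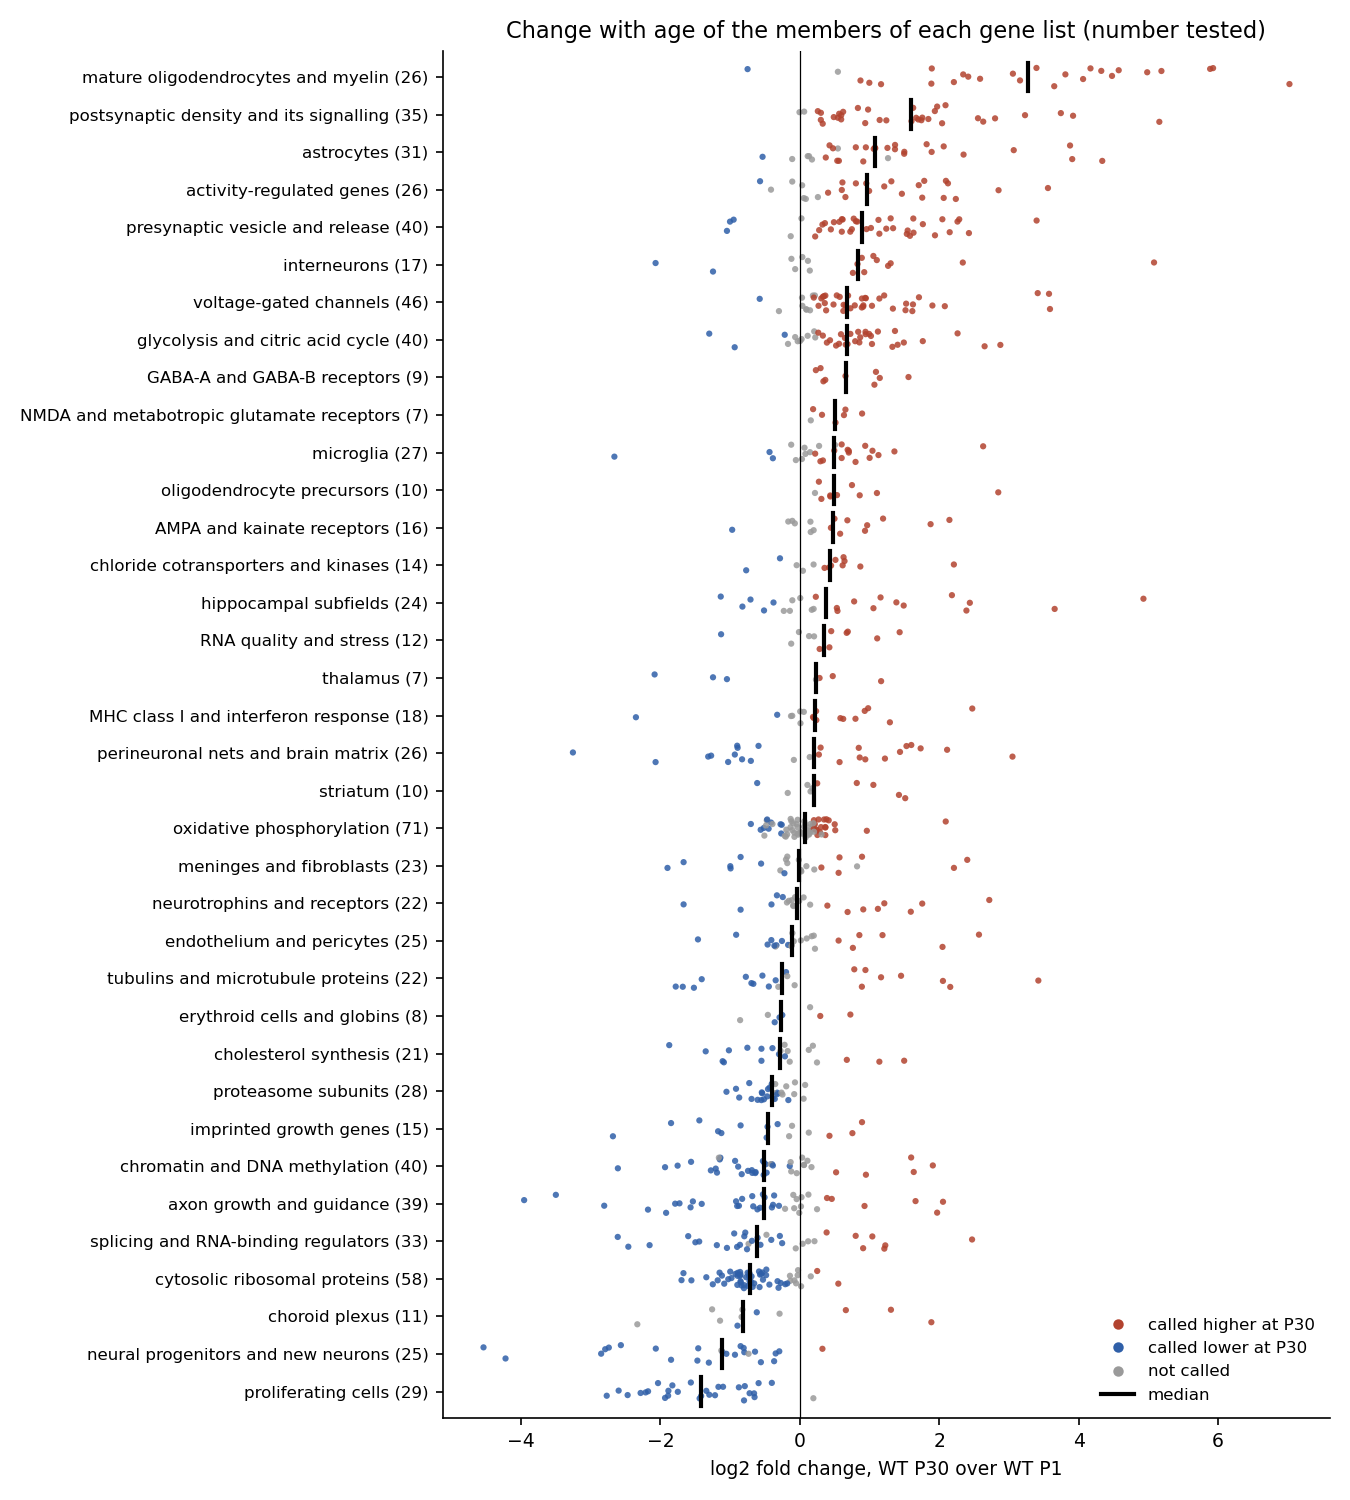
Log2 fold change, WT P30 over WT P1, of each tested member of the 36 gene lists (points) with the median of each list (bar) and the number of members tested. Myelin has the highest median, 3.28, and proliferating cells the lowest, -1.42.

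Genes of cell division fell almost throughout. Of 40 listed genes of proliferating cells 29 were tested, of which 0 were called higher and 28 lower, with a median log2 fold change of -1.42, and 20 were at least 2-fold lower. The mean level over these 29 genes was 9.23 to 9.43 on the P1 arrays and 7.83 to 7.93 on the P30 arrays, and 6 of them were detected on no P30 array. *Cdk1*, the kinase that drives entry into mitosis, read 9.61, 9.80, 9.59 and 9.76 at P1 and 7.25, 7.23, 7.10 and 7.30 at P30. It was not detected on any P30 array, which makes the fall at least 5.10-fold (adjusted p = 4.09e-09), where the P30 side of such a bound is the dimmest detected signal of each array or the probe's own signal, whichever is higher. *Cenpa*, the histone that marks centromeres, read 11.77, 12.09, 11.61 and 11.78 at P1 and 9.34, 9.10, 9.13 and 9.28 at P30 (6.06-fold lower, log2 fold change -2.60, SE 0.11, adjusted p = 2.36e-08). *Cdc20*, an activator of the complex that triggers chromosome separation, was 4.87-fold lower (SE 0.11 on the log2 scale, adjusted p = 5.86e-08), with all 4 of its probes called lower. Among the 15 genes that fell most were also *Pbk*, a mitotic kinase (7.81-fold lower, adjusted p = 1.36e-08), and *Lmnb1*, a protein of the nuclear lamina (10.6-fold lower, adjusted p = 6.22e-10). The replication-dependent histone genes *H2ac10* and *H2ac7* were 8.13-fold and 7.60-fold lower (adjusted p = 5.47e-09 and 6.93e-08), although close copies of histone genes may share these probes. The member not called was *Ccnd1*, a cyclin of the G1 phase, with a log2 fold change of 0.19 (SE 0.083, adjusted p = 0.0669). Another of its probes was called higher (log2 fold change 0.34, adjusted p = 0.0182), and the brightest probe was called higher under cyclic loess (adjusted p = 0.00805) and with all 16 arrays in the fit (adjusted p = 0.0282).

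Promoters of cell cycle genes are known for a small set of short sequence elements, among them the cell cycle genes homology region (CHR), the CCAAT box and sites of E2F factors, and so the promoters of the members with the clearest falls are shown here. The sequences are the 250 bases before the annotated start, from RefSeq on GRCm38.p6, read 5′ to 3′ on the strand of the gene, with the motifs searched for, on either strand, in capitals. The letters were TTTGAA for the CHR, those of its name for the CCAAT box, and TTTCCCGC, TTTGGCGC, TTTCGCGC or TTTGCCGC for an E2F site. *Cdk1* lies on the minus strand with its window at chr10:69352913-69353162, *Cdc20* on the minus strand at chr4:118437344-118437593 and *Cenpa* on the plus strand at chr5:30666636-30666885.
Cdk1: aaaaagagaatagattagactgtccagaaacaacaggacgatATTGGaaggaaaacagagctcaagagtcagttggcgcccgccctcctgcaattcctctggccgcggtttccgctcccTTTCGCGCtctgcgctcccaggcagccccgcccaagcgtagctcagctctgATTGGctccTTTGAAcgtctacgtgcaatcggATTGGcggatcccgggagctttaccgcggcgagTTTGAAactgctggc
Cdc20: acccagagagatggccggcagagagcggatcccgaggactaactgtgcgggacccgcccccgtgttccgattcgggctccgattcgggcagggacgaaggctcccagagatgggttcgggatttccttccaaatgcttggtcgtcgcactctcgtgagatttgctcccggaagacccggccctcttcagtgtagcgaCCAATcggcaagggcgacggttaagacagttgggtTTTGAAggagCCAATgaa
Cenpa: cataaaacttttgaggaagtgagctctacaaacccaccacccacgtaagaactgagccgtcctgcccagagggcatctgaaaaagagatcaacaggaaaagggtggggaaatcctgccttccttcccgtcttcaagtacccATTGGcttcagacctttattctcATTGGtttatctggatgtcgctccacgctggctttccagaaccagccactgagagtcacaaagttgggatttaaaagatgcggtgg
The *Cdk1* window held 2 CHR, 3 CCAAT boxes and 1 E2F site, with the CHR nearest the start beginning 15 bases before it. The *Cdc20* window held 1 CHR, beginning 18 bases before the start, between 2 CCAAT boxes. The *Cenpa* window held 2 CCAAT boxes. A promoter was given for 25 of the 29 tested genes of proliferating cells, and 18 of these 25 (72.0%) held a CCAAT box, 7 (28.0%) a CHR, 5 (20%) an E2F site and 6 (24.0%) both a CHR and a CCAAT box. Of the 8073 tested genes with a promoter, 36.7% held a CCAAT box, 10.2% a CHR, 3.22% an E2F site and 4.10% both a CHR and a CCAAT box. Over all 497 genes at least 2-fold lower at P30 that had a promoter, the shares were 41.6%, 11.3% and 6.44%, and an E2F site was found in 1.97% of the 610 genes at least 2-fold higher. Over all 27025 promoters of the table the shares were 34.5%, 16.3% and 1.91%. These matches are a description of the letters in the windows and say nothing of what binds there.

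Genes of neural progenitors and newly born neurons fell with them. Of 25 tested genes 22 were called lower and 1 higher, with a median of -1.11, and the mean level was 9.54 to 9.81 at P1 and 8.13 to 8.26 at P30. *Dcx*, which encodes the microtubule protein doublecortin of migrating neurons, fell more than any other gene. It read 13.18, 13.33, 13.30 and 13.06 at P1 and 8.48, 8.59, 8.80 and 8.84 at P30 (23.2-fold lower, log2 fold change -4.54, SE 0.098, adjusted p = 5.91e-10), and its other probe fell by 4.38 on the log2 scale. *Igfbpl1*, a secreted protein of immature neurons, read 12.26, 12.21, 12.28 and 12.50 at P1 and 8.15, 7.96, 8.06 and 8.20 at P30 (18.7-fold lower, log2 fold change -4.22, SE 0.084, adjusted p = 3.56e-10). For both genes the lowest P1 array stood far above the highest P30 array. *Insm1*, a zinc finger factor of neurogenic progenitors, was 6.93-fold lower (adjusted p = 2.03e-08) and *Vim*, an intermediate filament of radial glia, was 7.22-fold lower (adjusted p = 1.35e-07). The member that went the other way was *Hes1*, a Notch target that keeps progenitors from differentiating, which was 1.25-fold higher (adjusted p = 0.0165). It lost the call in 5 of the alternative settings, among them sex in the fit (adjusted p = 0.297) and the male arrays alone (adjusted p = 0.303). *Bhlhe22* and *Elavl4*, expressed in young and mature neurons, spread widely between arrays of the same age and were not called (log2 fold changes -1.13, SE 0.47, and -0.74, SE 0.35). Both were lowest at each age on the arrays of higher background, and with the array background in the fit they were called lower (log2 fold changes -0.82 and -0.49, adjusted p = 0.0327 and 0.0459). Another probe of *Elavl4* was called lower without that term (log2 fold change -0.32, adjusted p = 0.00573).

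Genes of axon growth and guidance fell more often than they rose, with 24 of 39 called lower, 6 higher and a median of -0.51. *Dpysl5*, a collapsin response mediator of growth cones, read 13.08, 13.05, 12.95 and 13.09 at P1 and 9.08, 8.98, 9.13 and 9.16 at P30 (15.5-fold lower, log2 fold change -3.96, SE 0.066, adjusted p = 1.51e-10). *Dpysl3*, of the same family, was 11.3-fold lower (adjusted p = 2.28e-09). *St8sia2*, the enzyme that adds polysialic acid to the adhesion molecule NCAM in the developing brain, read 11.20, 11.22, 11.14 and 11.09 at P1 and 7.31, 7.36, 7.40 and 7.43 at P30 (13.8-fold lower, log2 fold change -3.79, SE 0.062, adjusted p = 1.51e-10). The brighter probe of *Ncam1* itself went up, from 8.62, 8.57, 8.43 and 8.80 at P1 to 10.75, 10.55, 10.54 and 10.80 at P30 (4.15-fold higher, log2 fold change 2.05, SE 0.096, adjusted p = 5.62e-08). Its other probe was higher by 0.20 on the log2 scale (adjusted p = 0.0249). The ages did not overlap for *St8sia2* or for the brighter probe of *Ncam1*. Also against the list were *Kif5a*, a kinesin motor of axonal transport (3.92-fold higher, adjusted p = 5.26e-08), and *Unc5c*, a netrin receptor (3.16-fold higher, adjusted p = 8.9e-07). *Plxna2*, a semaphorin receptor, was not called (log2 fold change -0.094, SE 0.13). *Gap43* and the brightest probe of *Marcksl1*, membrane proteins of growth cones, were called but varied with the array background, as described further on. The dimmer probes of *Marcksl1* were called lower as well, with log2 fold changes of -2.659 (SE 0.129), -2.505 (SE 0.16) and -1.805 (SE 0.073). Other genes among the 15 largest falls were *Pafah1b3*, a catalytic subunit of a brain phospholipase complex (12.9-fold lower, adjusted p = 3.1e-10), *Cxadr*, an adhesion protein of the immature brain (9.67-fold lower, adjusted p = 4.23e-10), and *Nts*, the neuropeptide neurotensin. *Nts* read 10.40, 11.58, 11.20 and 9.96 at P1 and 7.85, 7.74, 7.36 and 7.41 at P30 (9.17-fold lower, log2 fold change -3.20, SE 0.31, adjusted p = 9.74e-06), with a spread of more than 1 log2 unit among the P1 mice. At each age *Nts* was lowest on the arrays of higher background.

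Regulators of chromatin and of RNA processing fell in larger part. Of 40 tested genes of chromatin and DNA methylation 25 were called lower and 5 higher, with a median of -0.51. *Uhrf1*, which brings the maintenance DNA methyltransferase to replicated DNA, read 10.33, 10.45, 10.31 and 10.07 at P1 and 7.85, 7.69, 7.53 and 7.64 at P30 (6.11-fold lower, log2 fold change -2.61, SE 0.097, adjusted p = 1.33e-08). *Ezh2*, the methyltransferase of Polycomb complex 2, was 3.37-fold lower (adjusted p = 7.38e-08), *Hmgb2*, a chromatin protein of dividing cells, 3.82-fold lower (adjusted p = 1.81e-07) and *Dnmt3b*, a de novo DNA methyltransferase, 1.85-fold lower (adjusted p = 4.53e-06). Going the other way were *Hdac11*, a deacetylase (3.10-fold higher, adjusted p = 5.86e-08), and *H1f2*, a linker histone (3.03-fold higher, adjusted p = 1.13e-05). *Satb1*, a genome organizer, was not called (log2 fold change 0.033, SE 0.087).

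Of 33 tested splicing and RNA-binding regulators 20 were called lower and 7 higher, with a median of -0.61. *Igf2bp3*, an mRNA-binding protein of fetal tissues, read 9.60, 9.77, 9.52 and 9.81 at P1 and 7.29, 7.16, 7.21 and 7.20 at P30 and was detected on no P30 array, a fall of at least 5.05-fold (adjusted p = 5.47e-09). *Rbm3*, an RNA-binding protein induced by cold, was 6.12-fold lower (adjusted p = 5.66e-08), and *Ptbp1*, the splicing repressor of non-neuronal cells and progenitors, 2.83-fold lower (adjusted p = 2.28e-07). Among the members that rose were splicing factors of mature neurons and tissues: *Mbnl2* read 10.38, 10.15, 10.56 and 10.42 at P1 and 12.95, 12.91, 12.74 and 12.80 at P30 (5.54-fold higher, log2 fold change 2.47, SE 0.093, adjusted p = 1.4e-08), while *Rbfox3*, which encodes the neuronal marker NeuN, was 2.34-fold higher (adjusted p = 1.92e-05) and *Rbfox1* 2.32-fold higher (adjusted p = 8.06e-05). The P1 and P30 arrays did not overlap for any of these genes.

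Genes of protein synthesis and turnover were mostly lower at P30 as well. Of 58 tested genes of cytosolic ribosomal proteins 48 were called lower and 2 higher, with a median of -0.72. *Rplp0* of the ribosomal stalk read 10.08, 10.12, 10.02 and 10.05 at P1 and 8.62, 8.34, 8.56 and 8.54 at P30 (2.94-fold lower, log2 fold change -1.56, SE 0.072, adjusted p = 5.58e-08) and *Rps26* was 2.54-fold lower (adjusted p = 8.03e-08). The 2 brightest members, *Rpl41* and *Rplp1*, lay at the top of the signal range at both ages (14.84 to 15.04), where a change can hardly be seen, and were not called. Ribosomal protein genes have many near-identical pseudogene copies, so that the identity of single members is uncertain. Of 28 tested proteasome subunits 0 were called higher and 19 lower, with a median of -0.40, led by the catalytic subunit *Psmb6* (2.07-fold lower, adjusted p = 1.38e-06), while the ATPase subunits *Psmc5* and *Psmc3* were not called (log2 fold changes 0.054 and 0.076). Of 21 tested genes of cholesterol synthesis and handling 11 were called lower and 3 higher, with a median of -0.28. The enzymes *Acat2* and *Fdps* were 3.66-fold and 2.55-fold lower (adjusted p = 1.01e-07 and 3.32e-07). Of the 3 that rose, *Apoe* encodes the lipid carrier of astrocytes (2.82-fold higher, adjusted p = 5.35e-07), *Cyp46a1* the neuronal enzyme that hydroxylates cholesterol for export (2.21-fold higher, adjusted p = 3.5e-07) and *Ebp* a sterol isomerase of the pathway itself (1.60-fold higher, adjusted p = 0.000538).

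Imprinted growth genes were also mostly lower at P30, with 9 of 15 called lower, 3 higher and a median of -0.46. *Cdkn1c*, an inhibitor of cyclin-dependent kinases, read 11.81, 11.85, 11.65 and 11.85 at P1 and 9.13, 9.25, 8.86 and 9.18 at P30 (6.42-fold lower, log2 fold change -2.68, SE 0.092, adjusted p = 8.02e-09). The noncoding RNA *H19* was detected on no P30 array and was at least 2.30-fold lower (adjusted p = 5.29e-07), its neighbor *Igf2*, a fetal growth factor, was 1.80-fold lower (adjusted p = 0.00102), and *Nnat*, a small membrane protein of the developing brain, was 3.60-fold lower (adjusted p = 2.83e-07). *Snrpn*, of the splicing machinery of neurons, went the other way (1.69-fold higher, adjusted p = 3.38e-05).

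The largest rises were those of myelin. Of 34 listed genes of mature oligodendrocytes 26 were tested, of which 24 were called higher and 1 lower, with a median of 3.28, and 6 were detected on no P1 array. *Mbp*, a main protein of compact myelin, read 8.36, 7.66, 7.75 and 7.80 at P1 and 14.91, 14.98, 14.92 and 14.86 at P30 (130-fold higher, log2 fold change 7.03, SE 0.14, adjusted p = 3.1e-10), the largest change of all genes, with its other probes higher by 5.18 and 1.58 on the log2 scale. Its P30 values lay close to the top of the signal range. *Mag*, the adhesion protein of the innermost myelin wrap, read 7.76, 7.63, 7.55 and 7.95 at P1 and 13.62, 13.56, 13.43 and 13.82 at P30 (59.2-fold higher, log2 fold change 5.89, SE 0.11, adjusted p = 2.62e-10). *Mobp*, another myelin protein, was detected on no P1 array and on every P30 array, where it read 12.42, 12.23, 12.01 and 12.52, at least 31.3-fold higher (adjusted p = 5.91e-10). Genes outside the list among the 15 largest rises belong to the same cells: *Cldn11*, the tight junction protein between myelin layers (31.7-fold higher, adjusted p = 6.22e-10), *Fa2h*, which hydroxylates the fatty acids of myelin lipids (at least 20.3-fold higher, adjusted p = 1.59e-10), *Opalin*, a membrane protein of myelinating cells (at least 19.6-fold higher, adjusted p = 4.41e-10), and *Bcas1*, of oligodendrocytes that begin to myelinate (22.0-fold higher, adjusted p = 9.1e-10). In none of these genes did the ages overlap. The member that fell was *Cd9*, a tetraspanin also made by other cells (1.68-fold lower, adjusted p = 5.4e-05), and *Lpar1*, a lysophospholipid receptor, was not called (log2 fold change 0.55, SE 0.23) but was called higher with the array background in the fit (log2 fold change 0.71, adjusted p = 0.00082).

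Markers of the precursors of oligodendrocytes rose less. Of 10 tested genes 9 were called higher and 0 lower, with a median of 0.49. *Gpr17*, a receptor of precursors about to differentiate, read 8.51, 8.03, 8.53 and 9.06 at P1 and 11.45, 11.38, 11.02 and 11.66 at P30 (7.19-fold higher, log2 fold change 2.85, SE 0.20, adjusted p = 1.06e-06). *Nkx2-2*, a transcription factor of the lineage, was 2.15-fold higher (adjusted p = 1.82e-06), and *Cspg4*, the proteoglycan NG2 of dividing precursors, was not called (log2 fold change 0.22, SE 0.089, adjusted p = 0.0561).

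Genes of astrocytes rose as well, with 24 of 31 called higher, 1 lower and a median of 1.08. *Gjb6*, the gap junction protein connexin 30, read 8.10, 8.25, 8.13 and 8.84 at P1 and 12.35, 12.31, 12.26 and 12.02 at P30 (15-fold higher, log2 fold change 3.91, SE 0.16, adjusted p = 2.1e-08). *Gpr37l1*, a receptor of mature astrocytes, read 8.0, 7.87, 7.75 and 8.12 at P1 and 11.71, 11.71, 12.02 and 11.82 at P30 (14.7-fold higher, log2 fold change 3.88, SE 0.10, adjusted p = 1.65e-09). *Ntsr2*, a neurotensin receptor of astrocytes, was 20.2-fold higher (adjusted p = 3.56e-10), whereas its ligand gene *Nts* fell, as given above. *Slc1a2*, the glutamate transporter GLT-1, was 8.39-fold higher (adjusted p = 9.97e-09), although a dimmer probe of this gene, at a log2 fold change of 0.14, was not called. *Aldh1l1*, a general astrocyte enzyme, was not called (log2 fold change -0.11, SE 0.075), and *Slco1c1*, a thyroid hormone transporter shared with the vessel wall, was 1.45-fold lower (adjusted p = 0.00289).

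Postsynaptic genes rose without a member called lower. Of 35 tested genes of the postsynaptic density and its signaling 33 were called higher and 0 lower, with a median of 1.60. *Camk2a*, the kinase subunit of synaptic plasticity, read 10.28, 9.44, 9.64 and 9.98 at P1 and 13.67, 13.62, 13.85 and 13.89 at P30 (15.1-fold higher, log2 fold change 3.92, SE 0.16, adjusted p = 2.58e-08), with its other probe higher by 4.15. *Cpne6*, a calcium sensor of dendritic spines, read 9.21, 8.28, 8.67 and 8.99 at P1 and 13.98, 13.94, 13.89 and 13.97 at P30 (35.7-fold higher, log2 fold change 5.16, SE 0.17, adjusted p = 5.79e-09). *Itpka*, an inositol kinase of spines, was 13.4-fold higher (adjusted p = 1.6e-08), *Icam5*, an adhesion protein of telencephalic dendrites, 9.39-fold higher (adjusted p = 1.17e-08) and *Dlg4*, which encodes the scaffold PSD-95, 3.35-fold higher (adjusted p = 2.49e-08). *Nlgn1* and *Lrrtm3*, synaptic adhesion genes with dim probes, were not called (log2 fold changes -0.005 and 0.062). Activators of Ras in neurons stood among the 15 largest rises as well. *Rasgrf1*, an exchange factor tied to the NMDA receptor, read 9.26, 8.86, 8.53 and 9.09 at P1 and 14.42, 14.32, 14.50 and 14.54 at P30 (45.5-fold higher, log2 fold change 5.51, SE 0.14, adjusted p = 1.43e-09), its 4 probes all called higher, and *Rasgrp1* was 22.3-fold higher (adjusted p = 4.31e-09). *Gng13*, a G protein gamma subunit, was 22.1-fold higher (adjusted p = 2.97e-09).

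Of the glutamate receptor genes, 9 of 16 tested for AMPA and kainate receptors and their partners were called higher and 1 lower (median 0.47). Of 17 listed genes of NMDA and metabotropic receptors only 7 were tested, *Grin2a* and *Grm5* not among them, and 6 were called higher and 0 lower (median 0.51). With sex in the fit 4 of these 7 were called higher and 0 lower (median 0.42). With the male arrays alone 9 of the listed genes passed the filter and their median was 0.28, so that the members differ as well. *Gria1*, the AMPA receptor subunit GluA1, read 8.96, 8.55, 8.89 and 9.04 at P1 and 10.99, 10.89, 11.19 and 10.96 at P30 (4.43-fold higher, log2 fold change 2.15, SE 0.11, adjusted p = 1.25e-07), and its other probes rose by 1.79 and 1.93. *Olfm1*, a secreted partner of these receptors, was 3.67-fold higher (adjusted p = 6.43e-09). Auxiliary subunits diverged: *Cacng3* was 2.29-fold higher (adjusted p = 1.38e-07), while *Cacng4* was 1.96-fold lower (adjusted p = 3.14e-06) and *Cnih3* was not called (log2 fold change 0.15, SE 0.075). *Grin1*, the obligatory NMDA receptor subunit, was detected on no P1 array and was at least 1.63-fold higher (adjusted p = 2.8e-06), near the lower limit of its probe. *Grin2b*, the subunit that prevails in the young brain, read 7.11, 7.26, 7.36 and 7.18 at P1 and 7.45, 7.37, 7.47 and 7.39 at P30, a change of 0.19 (SE 0.070, adjusted p = 0.0391) in a probe that only 1 P1 array detected and whose call was lost in 8 of the alternative settings, among them sex in the fit (adjusted p = 0.116) and the male arrays alone (adjusted p = 0.13).

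On the presynaptic side 35 of 40 tested genes were called higher and 3 lower, with a median of 0.89. *Slc17a7*, the vesicular glutamate transporter VGLUT1, read 10.11, 9.19, 9.67 and 9.95 at P1 and 13, 13.05, 13.26 and 13.20 at P30 (10.5-fold higher, log2 fold change 3.40, SE 0.17, adjusted p = 1.06e-07). *Nsf*, the ATPase that recycles fusion complexes, was 5.37-fold higher (adjusted p = 3.76e-08), *Sv2b*, a vesicle protein, 4.88-fold higher (adjusted p = 8.31e-09), *Napb*, a cofactor of NSF, 4.80-fold higher (adjusted p = 3.54e-08) and *Syt1*, the calcium sensor of fast release, 4.44-fold higher (adjusted p = 6.98e-09). The 3 that fell were *Slc17a6*, which encodes VGLUT2 and is also listed as a thalamic marker (2.07-fold lower, adjusted p = 9.64e-05), *Syt4*, a synaptotagmin that does not bind calcium as *Syt1* does (2.0-fold lower, adjusted p = 6.11e-06), and *Rims3* of the active zone (1.93-fold lower, adjusted p = 2.39e-06). *Stx1a*, a membrane partner of the fusion machinery, was bright at both ages and was not called (log2 fold change 0.023, SE 0.080).

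Inhibitory signaling rose too. All 9 tested genes of GABA receptors were called higher, with a median of 0.66. *Gabrd*, the delta subunit of receptors outside synapses, read 7.53, 7.54, 7.58 and 7.85 at P1 and 9.07, 9.17, 9.26 and 9.24 at P30 (2.95-fold higher, log2 fold change 1.56, SE 0.086, adjusted p = 1.91e-07). Of 14 tested genes of chloride transport and its kinases 9 were called higher and 2 lower, with a median of 0.43. The chloride importer *Slc12a2* (NKCC1) was 1.53-fold higher (adjusted p = 0.000491). Another of its probes was not called (log2 fold change 0.066, adjusted p = 0.422). *Slc12a4* (KCC1) was not called (log2 fold change 0.044, SE 0.084). *Car2*, a carbonic anhydrase of oligodendrocytes and neurons, led this list (4.63-fold higher, adjusted p = 3.53e-07).

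Markers of interneuron types did not move as a block. Of 17 tested genes 10 were called higher and 2 lower, with a median of 0.83. *Pvalb*, the calcium buffer of fast-spiking interneurons, was detected on no P1 array and read 12.16, 12.14, 12.29 and 12.37 at P30, at least 30.1-fold higher (adjusted p = 8.76e-11). The neuropeptides *Vip* and *Sst* were 5.06-fold and 2.47-fold higher (adjusted p = 2.76e-06 and 8.51e-05). *Reln*, the secreted protein of Cajal-Retzius cells and later of interneurons, read 13.73, 13.67, 13.67 and 13.71 at P1 and 11.69, 11.54, 11.64 and 11.64 at P30 (4.2-fold lower, log2 fold change -2.07, SE 0.060, adjusted p = 3.16e-09), and *Calb2*, calretinin, also listed as a thalamic marker, was 2.37-fold lower (adjusted p = 2.83e-07). *Nxph1* and *Cort*, of somatostatin and related interneurons, were not called (log2 fold changes -0.12 and 0.036).

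Of 24 tested markers of the hippocampal fields 13 were called higher and 5 lower, with a median of 0.38. Their mean level was 8.94 to 9.04 on the P1 arrays and 9.75 to 9.80 on the P30 arrays, and 3 of them were detected on no P1 array. *C1ql2*, a secreted synapse protein of dentate granule cells, read 7.57, 7.36, 7.38 and 7.56 at P1 and 12.45, 12.37, 12.43 and 12.34 at P30 (30.5-fold higher, log2 fold change 4.93, SE 0.072, adjusted p = 8.76e-11). *Spink8*, a marker of CA1 pyramidal cells, read 7.75, 7.39, 7.60 and 7.62 at P1 and 11.35, 11.33, 11.10 and 11.22 at P30 (12.6-fold higher, log2 fold change 3.66, SE 0.092, adjusted p = 1.42e-09), and *Wfs1*, also of CA1, was 5.42-fold higher (adjusted p = 6.24e-09). Among the members that fell were developmental factors: *Lhx2*, which gives the cortical primordium its identity, was 2.20-fold lower (adjusted p = 4.34e-05), and *Prox1*, of granule cells, was 1.63-fold lower (adjusted p = 0.00256), the latter not called with sex in the fit (adjusted p = 0.0537). *Pou3f1*, of CA1, was not called (log2 fold change 0.006, SE 0.094).

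Ion channels rose in 37 of 46 tested genes and fell in 1, with a median of 0.67, and 5 of the 46 were detected on no P1 array. *Scn2b*, an auxiliary sodium channel subunit, read 7.94, 7.94, 8.19 and 8.13 at P1 and 11.66, 11.67, 11.52 and 11.71 at P30 (12-fold higher, log2 fold change 3.59, SE 0.080, adjusted p = 6.6e-10). *Scn8a*, the sodium channel of mature axon initial segments, was 2.21-fold higher (adjusted p = 1.02e-06). *Kcnab2* and *Kcnab1*, the beta subunits of Shaker-type potassium channels, were 11.9-fold and 10.7-fold higher (adjusted p = 7.13e-09 and 4.31e-09), and *Kcnj4*, an inward rectifier, was 4.23-fold higher (adjusted p = 2.02e-08). The channel that fell was *Kcnk2*, a background potassium channel (1.49-fold lower, adjusted p = 0.00987), which was not called with the male arrays alone (adjusted p = 0.551). Its other probe was not called (log2 fold change -0.008, adjusted p = 0.926). *Cacna1h*, a T-type calcium channel, was not called (log2 fold change 0.031, SE 0.095).

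Genes known to be induced by neuronal activity were higher at P30 in 19 of 26 tested and lower in 1, with a median of 0.97, and 2 of the 26 were detected on no P1 array. *Arc*, an immediate early gene of synaptic plasticity, read 7.63, 7.70, 7.54 and 7.70 at P1 and 10.86, 11.42, 11.25 and 11.28 at P30 (11.8-fold higher, log2 fold change 3.56, SE 0.11, adjusted p = 4.52e-09). *Egr4*, a zinc finger factor, read 7.50, 7.32, 7.31 and 7.33 at P1 and 10.52, 10.80, 9.49 and 10.06 at P30 (7.22-fold higher, log2 fold change 2.85, SE 0.23, adjusted p = 2.86e-06), with a wide spread among the P30 mice but no overlap of the ages. *Nptx1*, a secreted pentraxin of synapses, was 4.36-fold higher (adjusted p = 6.56e-08), *Scg2*, a granin of dense core vesicles, read 9.76, 9.11, 9.45 and 9.73 at P1 and 11.77, 11.74, 11.74 and 11.76 at P30 (4.72-fold higher, log2 fold change 2.24, SE 0.13, adjusted p = 2.62e-07), and *Dusp4*, a MAP kinase phosphatase, was 1.49-fold lower (adjusted p = 0.000756). *Plk2* and *Rheb* were not called (log2 fold changes 0.26 and 0.033). *Plk2* was called higher with the array background (log2 fold change 0.34, adjusted p = 0.0159) or sex in the fit (log2 fold change 0.56, adjusted p = 0.0413). The cAMP response element (CRE, TGACGTCA), the site through which CREB acts on many such genes, was found in the promoters of 3 of the 19 members that had a promoter (15.8%), against 2.66% of all 8073 tested genes with a promoter and 1.62% of all 27025. Over the 610 genes at least 2-fold higher at P30 that had a promoter, the share was 2.62%, near that of all tested genes. The window of *Scg2*, on the minus strand at chr1:79440027-79440276, is shown as an example with the CRE in capitals, beginning 68 bases before the start.
Scg2: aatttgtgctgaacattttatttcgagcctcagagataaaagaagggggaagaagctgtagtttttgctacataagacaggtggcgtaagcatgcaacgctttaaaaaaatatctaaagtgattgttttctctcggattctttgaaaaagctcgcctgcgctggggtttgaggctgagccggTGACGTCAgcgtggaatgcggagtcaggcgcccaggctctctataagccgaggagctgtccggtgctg

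Of 22 tested genes of neurotrophins, other growth factors and their receptors 8 were called higher and 5 lower, with a median of -0.04. *Bdnf* read 8.37, 7.95, 8.73 and 8.88 at P1 and 10.25, 10.22, 10.20 and 10.29 at P30 (3.38-fold higher, log2 fold change 1.76, SE 0.17, adjusted p = 1.08e-05), and every P30 array lay above every P1 array. *Fgf1*, a growth factor of mature neurons, read 7.31, 7.26, 7.34 and 7.39 at P1 and 9.94, 10.04, 10.12 and 10.07 at P30 (6.58-fold higher, log2 fold change 2.72, SE 0.064, adjusted p = 9.1e-10) and *Sort1*, a sorting receptor of neurotrophins, was 3.01-fold higher (adjusted p = 4.69e-08). *Igfbp2*, which binds insulin-like growth factors, was 3.18-fold lower (adjusted p = 2.55e-07).

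**Figure D3:**
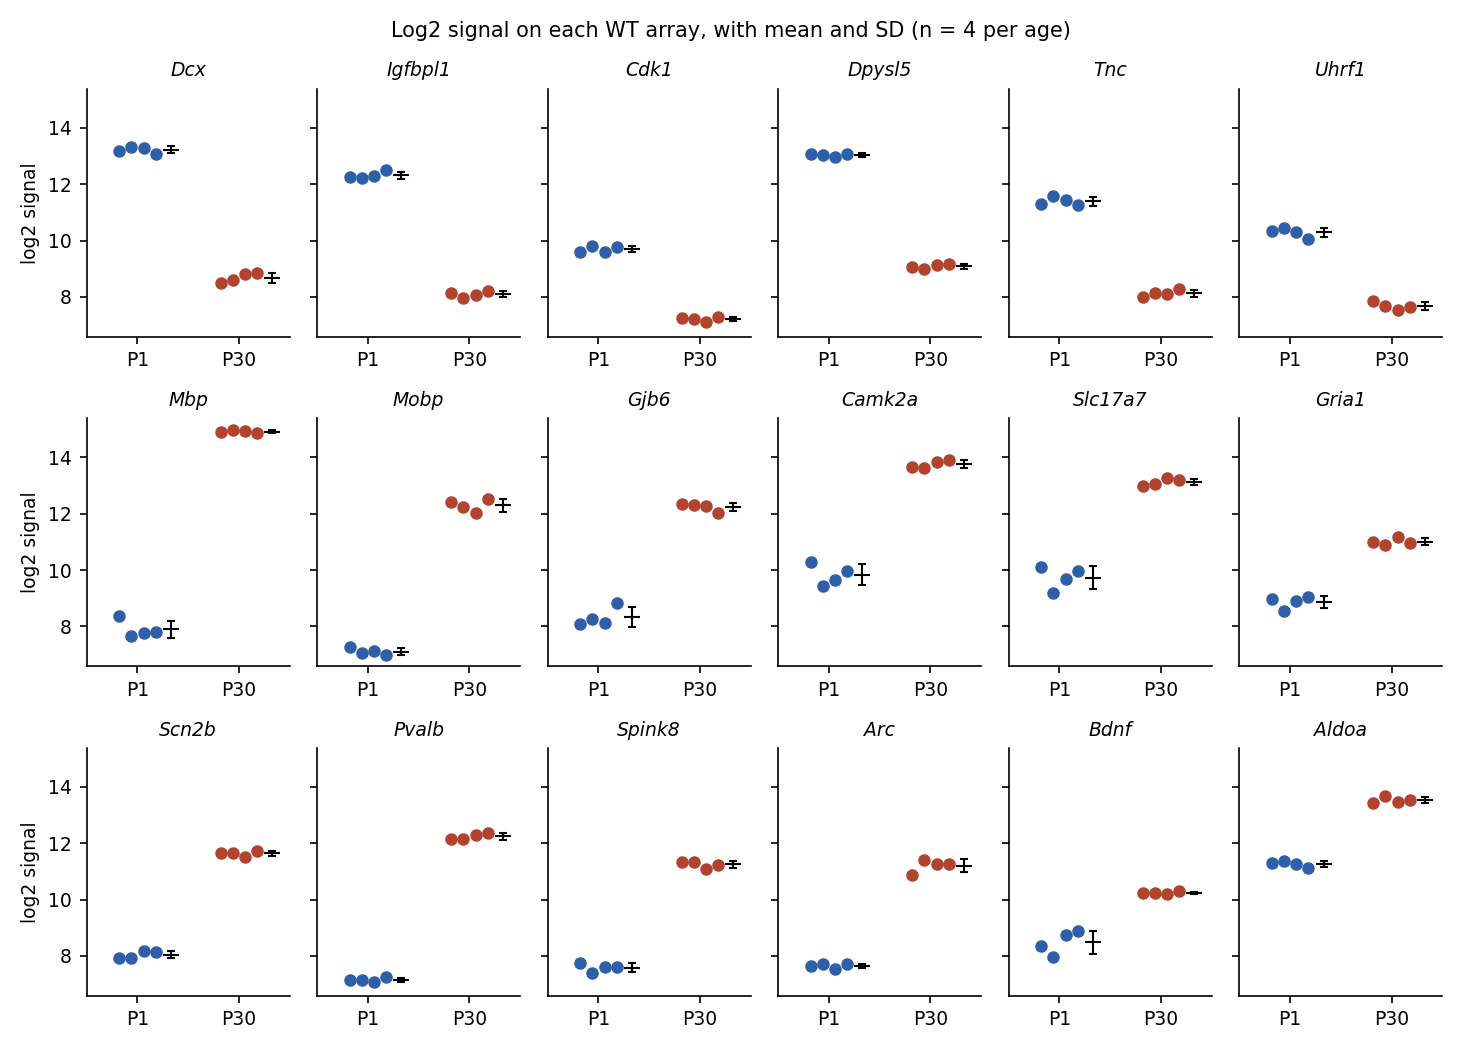
Log2 signal of 18 genes on each of the 4 WT P1 and 4 WT P30 arrays (points), with the mean (line) and SD (bar) of each age. The ages do not overlap in any panel, with falls from *Dcx* to *Uhrf1* and rises from *Mbp* to *Aldoa*.

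Enzymes of glucose breakdown rose, whereas the respiratory chain hardly moved as a group. Of 40 tested genes of glycolysis and the citric acid cycle 29 were called higher and 3 lower, with a median of 0.67. *Pfkp*, the platelet-type phosphofructokinase, read 8.38, 8.10, 7.90 and 8.13 at P1 and 11.03, 10.98, 10.95 and 11.06 at P30 (7.35-fold higher, log2 fold change 2.88, SE 0.095, adjusted p = 6.32e-09). *Aldoa*, an aldolase, read 11.29, 11.36, 11.25 and 11.13 at P1 and 13.44, 13.67, 13.45 and 13.53 at P30 (4.80-fold higher, log2 fold change 2.26, SE 0.078, adjusted p = 7.77e-09), and *Eno2*, the neuronal enolase, was 6.28-fold higher (adjusted p = 2.71e-08). *Hk2*, a hexokinase of growing tissues, and *Ldha*, a lactate dehydrogenase subunit, were 1.91-fold and 1.16-fold lower (adjusted p = 2.44e-05 and 0.0131), the latter without a call in 5 of the alternative settings, among them the male arrays alone (adjusted p = 0.0555). *Cs* and *Fh1*, of the citric acid cycle, were not called (log2 fold changes 0.025 and -0.031). Of 71 tested genes of oxidative phosphorylation 20 were called higher and 9 lower, with a median of 0.08, a share near that of all genes for rises and below it for falls. With the male arrays alone the median was 0.12. *Cox6a2*, the cytochrome oxidase subunit known from heart and muscle, stood apart from the other members and read 7.41, 7.53, 7.49 and 7.42 at P1 and 9.55, 9.43, 9.69 and 9.55 at P30 (4.27-fold higher, log2 fold change 2.09, SE 0.071, adjusted p = 7.35e-09).

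Tubulins and microtubule proteins went both ways, with 8 of 22 called higher and 11 lower (median -0.25). *Tuba4a*, the alpha tubulin of mature tissues, read 7.97, 7.71, 7.78 and 7.77 at P1 and 11.16, 11.31, 11.12 and 11.33 at P30 (10.7-fold higher, log2 fold change 3.42, SE 0.081, adjusted p = 9.1e-10), and *Nefh*, the heavy neurofilament of large axons grouped with them, was 4.46-fold higher (adjusted p = 7.18e-09). *Tubb6* was 3.44-fold lower (adjusted p = 2.32e-07), and *Map2*, of dendrites, was not called (log2 fold change -0.075, SE 0.072). Tubulin genes are near-identical in sequence, so that single members are uncertain. The extracellular matrix of the brain was likewise split, with 13 of 26 tested genes higher and 11 lower (median 0.21). *Tnc*, the tenascin of the embryonic matrix, read 11.29, 11.58, 11.43 and 11.25 at P1 and 7.99, 8.15, 8.09 and 8.29 at P30 (9.56-fold lower, log2 fold change -3.26, SE 0.093, adjusted p = 2.97e-09), and *Nid1*, of basement membranes, was 2.49-fold lower (adjusted p = 3.21e-07). *Hapln4*, a link protein of perineuronal nets, was detected on no P1 array and was at least 7.17-fold higher (adjusted p = 2.47e-09), while *Acan*, the main proteoglycan of these nets, lay near the detection limit and was not called (log2 fold change 0.14, SE 0.069).

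Of 27 tested microglial genes 16 were called higher and 3 lower, with a median of 0.49. *Selplg* and *Tmem119*, of mature microglia, were 6.19-fold and 2.56-fold higher (adjusted p = 4.47e-09 and 1.19e-06), and *Csf1r*, the receptor on which these cells depend, was 2.19-fold higher (adjusted p = 0.000919). *Spp1*, the secreted protein osteopontin made by subsets of microglia in the newborn brain, read 10.36, 10.93, 10.52 and 9.38 at P1 and 7.67, 8.37, 7.35 and 7.15 at P30 (6.32-fold lower, log2 fold change -2.66, SE 0.34, adjusted p = 6.68e-05), and *Ccl3*, a chemokine, was at least 1.21-fold lower, with no P30 array detecting it (adjusted p = 0.000873). The ages did not overlap for any of these 5 genes. Of 18 tested genes of MHC class I and the interferon response 11 were called higher and 2 lower, with a median of 0.22, and *Ifi27* (5.56-fold higher, adjusted p = 5.02e-09) and *Ifitm2* (5.11-fold lower, adjusted p = 3.96e-08), both interferon-induced membrane proteins, were its extremes.

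Markers of other cells in or beside the tissue were read for the whole list in each case. Endothelium and pericytes had 6 of 25 tested genes called higher and 8 lower (median -0.11), below the shares over all genes for rises and near them for falls, with *Cldn5*, the tight junction protein of brain vessels, 2.75-fold lower and *Flt1*, a receptor for VEGF, 2.27-fold higher (adjusted p = 1.72e-06 and 3.07e-06). The log2 fold changes of this list ran from -1.46, that of *Cldn5*, to 2.57 in a member not named here, so its largest change was a rise. Meninges and fibroblasts had 6 of 23 higher and 7 lower (median -0.01). With the male arrays alone, where 26 of these genes passed the filter, the median was -0.07. *Mgp*, a matrix protein, was 5.29-fold higher (adjusted p = 3.92e-05) and *Fbln2*, a fibulin, 3.73-fold lower (adjusted p = 2.53e-08), while *Ptgds*, the prostaglandin D synthase of meninges and oligodendrocytes, read 9.09, 9.99, 8.78 and 10.51 at P1 and 11.47, 12.82, 11.77 and 11.15 at P30 and lost its call with sex in the fit (adjusted p = 0.0973). Of 8 tested erythroid genes 2 were higher and 3 lower (median -0.27), with *Hba-a1*, whose sequence is shared with another alpha globin gene, 1.28-fold lower (adjusted p = 0.00748), a call lost under cyclic loess (adjusted p = 0.0507). For tissue next to the hippocampus, 3 of 7 tested thalamic markers were higher and 3 lower, 5 of 10 striatal markers higher and 1 lower, and 3 of 11 choroid plexus markers higher and 2 lower. The 3 thalamic markers called lower were *Zic1*, of the thalamus and the roof of the brain (4.24-fold lower, adjusted p = 2.22e-05), and *Slc17a6* and *Calb2*, given above. *Ppp1r1b*, the striatal phosphoprotein DARPP-32 that granule cells and other neurons also make, was 2.68-fold higher (adjusted p = 1e-05) by its brightest probe. Its other probes gave log2 fold changes of 0.25 (adjusted p = 0.028) and 0.001 (adjusted p = 0.991). Of 12 tested genes of stress and RNA quality 7 were higher and 1 lower (median 0.35), among them *Hspa1a*, an inducible heat shock protein detected on no P1 array (at least 2.09-fold higher, adjusted p = 1.22e-06), while *Hspa8* and *Dnajb1* were not called (log2 fold changes 0.13 and -0.013). The part of these cells and of tissue handling in the results was not tested.

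Markers of the choroid plexus varied widely between mice of the same age. *Ttr*, the thyroid hormone carrier made in bulk by this tissue, read 14.79, 14.13, 12.47 and 12.55 at P1 and 14.35, 10.79, 8.98 and 10.48 at P30, and *Clic6*, another of its markers, read 11.15, 9.09, 7.97 and 8.37 at P1 and 8.99, 7.57, 7.32 and 7.66 at P30. Both were highest on WT P1 replicate 1 at P1 and on WT P30 replicate 2 at P30. Neither was called over the 8 arrays (log2 fold change -2.33, SE 1.00, adjusted p = 0.0675 for *Ttr* and -1.26, SE 0.63, adjusted p = 0.11 for *Clic6*), and without WT P30 replicate 2 *Ttr* was lower by 3.40 on the log2 scale (adjusted p = 0.00135). The mean over the 11 tested markers was 8.17 to 9.78 on the P1 arrays and 7.96 to 9.06 on the P30 arrays. *Enpp2*, which oligodendrocytes make as well, was 3.70-fold higher (adjusted p = 0.000272).

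Another group of genes varied within each age with the array background. *Stmn1*, a microtubule destabilizer of dividing cells and growing axons, read 11.35, 12.27, 12.21 and 9.78 at P1 and 9.48, 9.41, 7.79 and 7.86 at P30, and *Gap43* read 12.78, 12.85, 12.86 and 11.82 at P1 and 11.15, 10.99, 9.87 and 9.59 at P30. *Idh2*, a mitochondrial dehydrogenase, and the brightest probe of *Marcksl1* had the same pattern. Each was lower on WT P1 replicate 8 than on the other P1 arrays and lower on WT P30 replicates 6 and 7 than on the other P30 arrays, the 3 arrays of higher background. The same order of arrays held for other genes named above, among them *Nts*, *Spp1*, *Csf1r*, *Sst*, *Vip* and *Kcnk2*. *Stmn1* (6.82-fold lower, log2 fold change -2.77, SE 0.59, adjusted p = 0.00217), *Gap43* (4.53-fold lower, log2 fold change -2.18, SE 0.37, adjusted p = 0.000534), *Marcksl1* (7.0-fold lower, log2 fold change -2.81, SE 0.35, adjusted p = 6.71e-05) and *Idh2* (2.46-fold lower, log2 fold change -1.30, SE 0.44, adjusted p = 0.0256) were called over the 8 arrays. With the array background in the fit the log2 fold changes were -2.35 for *Stmn1* (adjusted p = 4.68e-05), -1.93 for *Gap43* (adjusted p = 2.31e-05) and -1.0 for *Idh2* (adjusted p = 0.00561). With the male arrays alone, where a single P1 array of higher background is left, *Stmn1* (-1.12, adjusted p = 0.249), *Gap43* (-1.44, adjusted p = 0.102) and *Idh2* (-0.18, adjusted p = 0.833) were not called. *Idh2* was also without a call under median scaling (adjusted p = 0.0654), without the detection filter (adjusted p = 0.053), with trend and robust variances (adjusted p = 0.0644), with sex in the fit (adjusted p = 0.797), and without WT P1 replicate 4 or 5 or WT P30 replicate 6 or 7 (adjusted p = 0.0699 to 0.0727).

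**Figure D4:**
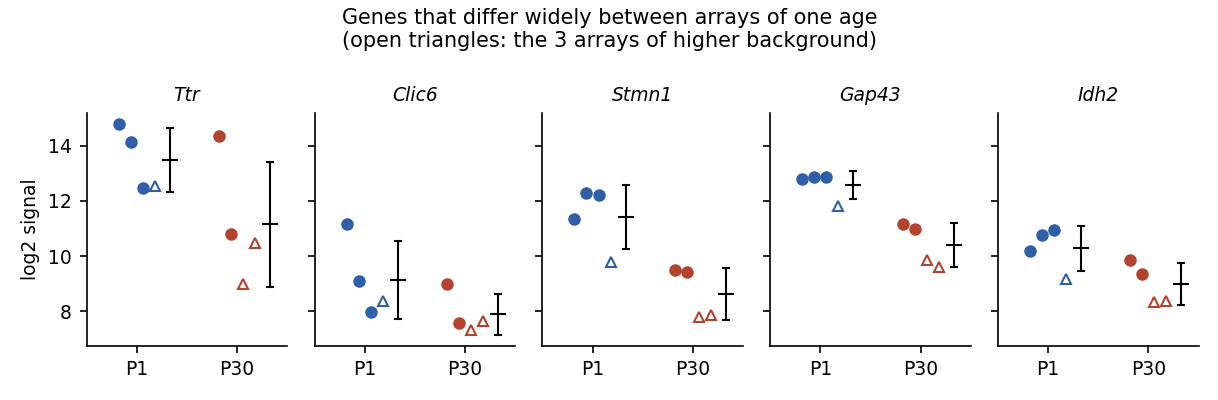
Log2 signal of *Ttr*, *Clic6*, *Stmn1*, *Gap43* and *Idh2* on each WT P1 and WT P30 array, with the 3 arrays of higher background (WT P1 replicate 8, WT P30 replicates 6 and 7) as open triangles and the mean and SD of each age beside the points. *Stmn1* at P1 ranged from 9.78 to 12.27 and *Ttr* at P30 from 8.98 to 14.35.

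Related genes of which one is known from the immature and the other from the mature brain were compared as pairs, by how the difference of their log2 signals changed with age and an exact permutation test (two-sided, 70 assignments of the 8 arrays), in which no p below 0.0286 is possible. Of 20 listed pairs both genes were tested in 10, and in 6 of these the later gene gained on the earlier at the smallest possible p. That p requires that the ages do not overlap, which for single probes held, in either direction, in 55.4% of all those tested. The pairs were chosen with earlier results of these data known, so the count is a description only. The vesicular glutamate transporters showed the largest gain, with *Slc17a7* up and *Slc17a6*, the gene shared with the thalamic markers, down, a difference of 4.44 (SE 0.24, exact permutation p = 0.0286). Next came the kinase subunits *Camk2d* and *Camk2a* (3.62, SE 0.19, exact permutation p = 0.0286) and the astrocytic glutamate transporters *Slc1a3* and *Slc1a2* (2.70, SE 0.09, exact permutation p = 0.0286), in both of which the earlier gene was higher too (1.23-fold for *Camk2d* and 1.29-fold for *Slc1a3*), without a call in the male arrays alone (adjusted p = 0.0948 and 0.113). The enolases *Eno1* and *Eno2* (1.81, SE 0.17), the tubulins *Tubb2b* and *Tubb4a* (1.64, SE 0.09) and the synaptotagmins *Syt11* and *Syt1* (1.33, SE 0.14) reached the same p. The probe of *Camk2d* was dim, at 7.72 on WT P30 replicate 7, where the dimmest detected signal was 7.39. Its change may therefore show only in part. *Tubb2b* lay at the top of the signal range at P1 (14.98 to 15.04), and the largest fall among its dimmer probes was a log2 fold change of -3.13. The other 4 pairs did not reach it: *Stmn1* and *Stmn4* (2.26, SE 0.84, exact permutation p = 0.0857), *Actl6a* and *Actl6b* of the chromatin remodelers of progenitors and neurons (0.66, SE 0.41, exact permutation p = 0.143), *Tubb3* and *Tubb2a* (0.17, SE 0.12, exact permutation p = 0.286), and the scaffolds *Dlg3* and *Dlg4* (0.14, SE 0.16, exact permutation p = 0.4). *Actl6a* and *Tubb3* were called lower over the 8 arrays but not with the male arrays alone (adjusted p = 0.54 and 0.065). Both scaffold genes rose, *Dlg3* 3.04-fold and *Dlg4* 3.35-fold.

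**Figure D5:**
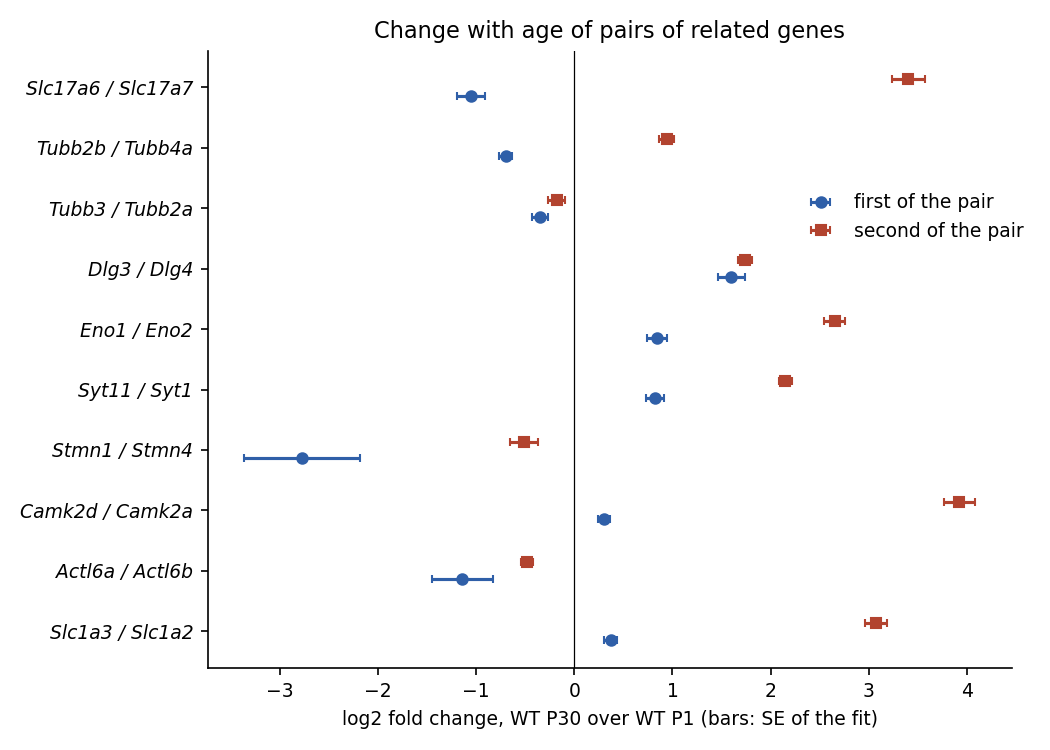
Log2 fold change, WT P30 over WT P1, with its SE, of both genes of the 10 tested pairs, the gene known from the immature brain named first. *Slc17a6* fell and *Slc17a7* rose, while *Dlg3* and *Dlg4* rose by like amounts.

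*Mef2c* itself, which the WT mice carry intact, read 9.40, 9.50, 9.57 and 9.62 at P1 and 9.62, 9.80, 9.80 and 9.63 at P30. Its brighter probe was not called (log2 fold change 0.19, SE 0.077, adjusted p = 0.0531) and its other probe was called higher by 0.33. Whether the change with age differed in *Mef2c*-het mice was tested in a fit of all 16 arrays. Of 14777 probes, 0 (0.0%) differed at an adjusted p under 0.05 by limma, and 438 (2.96%) had an unadjusted p under 0.05. This does not show that the genotypes matured alike, but the differences of the log2 fold changes lay between -1.16 and 2.05, and 0.58% of them exceeded 0.5 in size. In *Mef2c*-het mice *Mbp* rose by 6.82, *Slc17a7* by 3.17 and *Arc* by 3.39 on the log2 scale, and *Dcx* fell by 4.59. Among the genes named here *Spp1* differed most, with a change of -0.63 in *Mef2c*-het mice, 2.04 above that in WT mice (SE 0.46, adjusted p = 0.998). In WT mice *Spp1* was lowest at each age on the arrays of higher background.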

How the data were processed

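RNA from whole hippocampi was labeled with biotin and read on Illumina MouseRef-8 v2 beadchips, with 1 mouse per array. The deposited table gives each probe a mean bead intensity on every array, linear and without normalization, together with a detection p-value from the negative controls of the array. The paper names log2 transformation and quantile normalization, and whether a background was subtracted is not given in the sources used here. Here log2 intensities of the 8 WT arrays were quantile normalized together, and the probes detected (p under 0.05) on 4 or more of them were tested with limma 3.58.1 in R 4.3.3 (lmFit, eBayes, two-sided, Benjamini-Hochberg adjustment over all probes tested). The difference between genotypes was fitted on all 16 arrays. The labels do not say that the mice of an age came from separate litters.

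Of the probes, 25376 were named through RefSeq (GRCm38.p6), by Entrez number (16938), accession (7420) or symbol (1018), and each gene is described by its tested probe of highest mean signal. Genes were named by rule: the 15 largest rises and falls without overlap, in each of 36 lists up to 4 members of largest change, up to 3 called against the list's direction and up to 2 bright members not called, the paired genes, and *Mef2c*. The rule selects 279 genes, of which 188 are named here, and *Xist* was read in addition. The members, lists and pairs were chosen with earlier results of these data known. A probe had a median of 36 to 39 beads per array, whose signals gave a standard error of 3.38% to 3.96% of the level (median probe), and 4 mice per age limit the precision of a comparison. Tested on simulated data, the fit recovered 56% of 50 probes with a log2 fold change of 0.5 and 96% of 50 with 1. The simulation changed only 50 of 13770 probes at each size, with independent normal noise and no differences of background or sex. In the data 28.4% of probes were called higher and 32.1% lower. The adjustment is stricter where few probes change, so these shares are not the recovery of the comparison itself. The alternatives were another background correction, scaling, filter, variance model, set of arrays, covariate or probe, and leaving out each array. The comparisons of the 3 higher-background, the 5 lower-background and the male arrays alone were chosen after seeing the data.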

Additional observations from a re-analysis of the deposited data

Results flagged for a closer look

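On 14 of 376 groups of 4 arrays, each a named gene at 1 age, 1 array stood well away from the remaining 3. Chance alone does this in about 1 in 20 groups, here 18.8. The number given first is the distance of the array from its nearest neighbor as a part of the whole range of the group, followed by the level on that array and on the neighbor. On WT P1 replicate 1 this concerned *Egr4* (0.866, level 7.50 against 7.33). On WT P1 replicate 4 this concerned *H19* (0.889, level 8.81 against 8.47). On WT P1 replicate 5 this concerned *Rpl41* (1.0, level 15.04 against 14.98), *Syt11* (0.856, level 13.43 against 13.69) and *Tubb2b* (1.0, level 14.98 against 15.04). On WT P1 replicate 8 this concerned *Cs* (0.846, level 11.32 against 11.69), *Gabrd* (0.86, level 7.85 against 7.58), *Gap43* (0.928, level 11.82 against 12.78), *Selplg* (0.863, level 7.52 against 7.34) and *Slc12a4* (0.873, level 7.69 against 7.43). On WT P30 replicate 2 this concerned *Slc12a2* (0.909, level 12.28 against 12). On WT P30 replicate 6 this concerned *Hspa8* (0.837, level 14.56 against 14.76) and *Rplp1* (0.907, level 15.04 against 14.90). On WT P30 replicate 7 this concerned *Camk2d* (0.84, level 7.72 against 7.81). The gaps of *Rpl41* and *Tubb2b* are those between the topmost ranks of the normalized signal. *Gap43* is among the genes described above as lower on the 3 arrays of higher background.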

How the results depend on the processing

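Over the alternative settings, 2456 to 4288 probes were called higher at P30 and 3231 to 4701 lower, and 867 to 1779 and 653 to 1609 were called and at least 2-fold higher and lower. The highest 2-fold counts, 1779 higher and 1609 lower, came with normexp background correction, which subtracts background before the logarithm, so that the folds given in the text, made without it, are the smaller ones. The lowest count of probes called higher, 2456, came with the male arrays alone, a fit in which 1 P1 array is left and is assumed to vary like the others. Leaving out each array in turn gave 3335 to 3931 called higher and 3820 to 4197 lower, and 931 to 1029 and 690 to 812 at least 2-fold so. The 188 named genes were refitted in 4047 combinations of gene and setting. No named gene that was called changed direction past its call, 48 combinations lost a call and 47 gained one. The medians of the neurotrophin (-0.091 to 0.034), meninges (-0.14 to 0.021) and thalamus lists (-0.392 to 0.348) changed sign. The count of probes whose change with age differed between the genotypes was 0 in every setting run. No paired analysis was possible because the replicate numbers of the WT P1 (1, 4, 5 and 8) and WT P30 arrays (2, 3, 6 and 7) have none in common. Signal over background limits dim probes, since a probe near the negative controls shows only part of a change.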
